A study of Mus musculus with 5 samples.

Results

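The comparison described here sets the tissue of a small striatal stroke 3 days after its onset against the same kind of tissue 4 hours after onset. It uses 2 of the 5 RNA libraries of the study, the day 3 library and the 4-hour library. Its ratios as deposited make no use of the sham library, while the choice of genes and the scaling factors drew on all 5 libraries. The 2 libraries were taken by their labelled time after stroke, and the comparison runs over every gene of the deposited table. Of the 19221 genes listed, 12783 reached at least 1 RPKM (reads divided by exon length and by the size of the library) in at least 1 of the 5 libraries and were analysed.

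The animals were male C57BL/6 mice aged 9 weeks with no genetic modification named in the labels. The day 3 and 4-hour groups had photothrombosis, in which laser light (532 nm, 30 mW) from a fibre placed 3 mm below the dura in the caudate putamen excites the injected dye rose bengal (100 mg/kg) so that vessels clot at the fibre tip. Each stroke library is a pool of 6 animals, and the day 1 and day 10 libraries were made likewise. The sham library pools the opposite side of the brain, where the laser was applied before the dye was given, and the labels do not say how many animals, or from which times, went into it. Each group is therefore 1 library with no replicate, so no difference below has a replicate check, a p-value or a standard deviation, and every statement describes these libraries.

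The table gives 42261788 reads behind the day 3 library and 45952897 behind the 4-hour library. Loci of ribosomal RNA held 28.8% of the gene-assigned reads at day 3 and 26.5% at 4 hours, and the mitochondrial genome held 4.18% at day 3 and 5.63% at 4 hours. Median-of-ratios scaling, which assumes that most genes do not differ, shifted the log2 ratios of well-read genes by 0.23 upwards, so ratios are given as deposited and the scaled value stands beside them where the shift matters. The tissue label was checked with markers of medium spiny neurons, the projection neurons that make up most of the striatum. Ppp1r1b, which encodes DARPP-32 and is named here only for this check, was at 657 RPKM at day 3 and 1004 RPKM at 4 hours, and all 19 analysed markers of these neurons were read in both libraries.

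A clotted vessel starves the tissue it feeds within minutes, and the cells that survive the first hours switch on stress and activity genes whose transcripts are short-lived. Over the following days microglia, the resident phagocytes of the brain, and monocytes that enter from the blood remove dead cells and myelin, while astrocytes around the core become reactive and build a border. Microglia and invading phagocytes divide, digest what they engulf in lysosomes, and carry the receptors for antibodies, complement and presented antigens. The pair of times set side by side here falls at opposite ends of that sequence.

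At day 3, 18 of 30 genes of phagocytosis and lysosomes, 14 of 20 of reactive astrocytes, 9 of 10 of MHC class I, 13 of 18 of interferon response and 12 of 17 of the cell cycle were at least 2-fold higher than at 4 hours. At least 2-fold lower were 9 of 14 glucocorticoid response, 9 of 16 myelin (5 scaled), 6 of 10 choroid plexus and ependyma and 6 of 6 haemoglobin and red cell genes. A smaller share passed the limit, in each case downwards, in the lists of presynaptic machinery (9 of 21, 6 scaled) and medium spiny neurons (7 of 19, 2 scaled). The log2 ratio is log2((day 3 RPKM + 1) / (4-hour RPKM + 1)) and makes the differences of low genes look smaller than they are. At a size limit of 1 on that scale, which is 2-fold, 1217 of the 12783 genes were higher at day 3 (9.52%) and 885 were lower (6.92%). Of the protein coding nuclear ones 774 were higher and 760 lower. The median over all genes was -0.19, and after scaling it was -0.01, with 1547 genes higher (12.1%) and 412 lower (3.22%). With a pseudocount of 0.1 in place of 1, lower genes outnumbered higher ones, with 1768 higher and 1909 lower. The percentages of genes higher and lower are the background for the counts in the 55 gene lists below. List members named below although they lie within the limit were chosen after their values were seen. In tissue pooled as here, fewer cells of a type and less RNA per cell cannot be told apart.

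The large differences lay on the high side. At a limit of 4-fold 299 genes were higher and 10 lower, at 8-fold 94 and 2, and at 16-fold 24 and 1. The lower genes were thus nearly all within 4-fold, whereas the higher genes included many that were barely read at 4 hours.

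**Figure D1:**
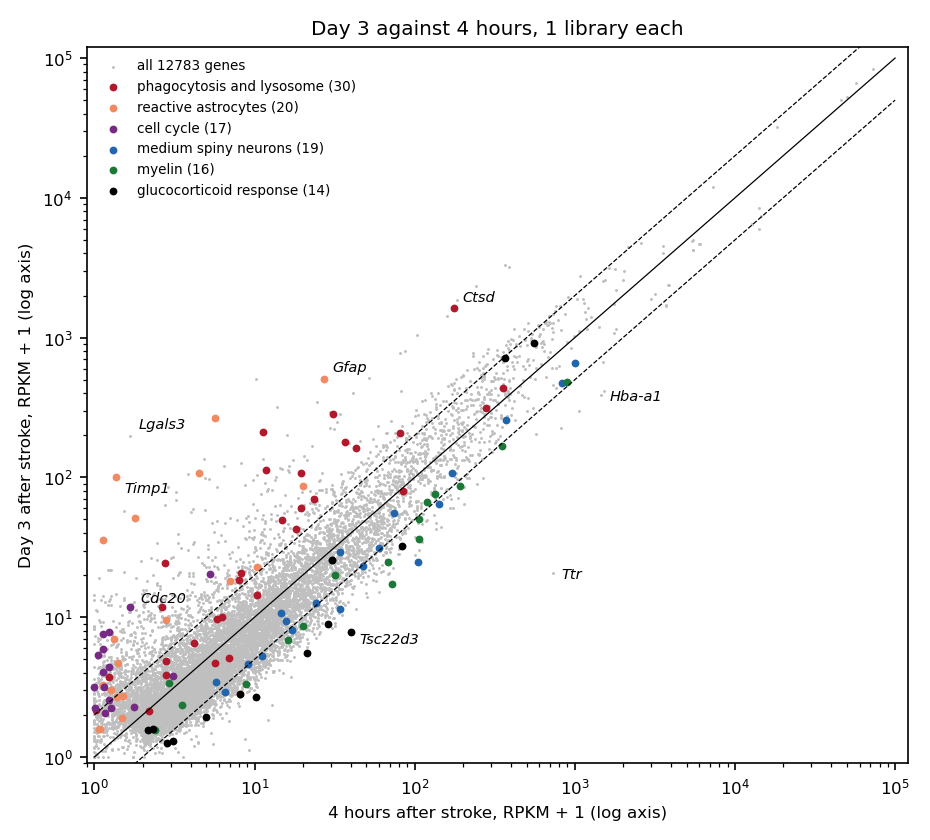
Level of each of the 12783 genes at day 3 (vertical axis) against 4 hours (horizontal axis), both as RPKM + 1 on log axes, with the equal-level line solid and the 2-fold lines dashed. Above the upper 2-fold line lie 18 of 30 phagocytosis and lysosome, 14 of 20 reactive astrocyte and 12 of 17 cell cycle members, and below the lower one 7 of 19 medium spiny neuron, 9 of 16 myelin and 9 of 14 glucocorticoid response members.

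The protein coding gene with the largest ratio was Lgals3 (chr14:47367751-47386160, GRCm38), which encodes galectin-3, a sugar-binding protein of activated phagocytes. Lgals3 was at 198 RPKM at day 3 and 0.679 RPKM at 4 hours, a log2 ratio of 6.89. In the other libraries it was at 2.37 RPKM in sham, 28.1 at day 1 and 38.5 at day 10, so day 3 was the highest and 4 hours the lowest of all 5. The plain ratio of day 3 to 4 hours was 291 with a 95% counting interval of 202 to 435, an interval that covers counting error only. Timp1 (chrX:20870166-20874735), an inhibitor of matrix metalloproteinases, followed with 100 RPKM at day 3 and 0.368 RPKM at 4 hours (log2 ratio 6.21). Lgals1, another galectin gene, was at 509 RPKM at day 3 and 9.14 RPKM at 4 hours (5.65). Serpina3n, a protease inhibitor secreted by reactive astrocytes, was at 264 RPKM at day 3 and 4.66 RPKM at 4 hours (5.55, ratio 56.6, interval 49.6 to 65). These 4 genes were all already above their 4-hour level at day 1, at 60.4 RPKM for Timp1, 45 for Lgals1 and 99.4 for Serpina3n. Timp1, Lgals1 and Serpina3n were at 11.1, 16.3 and 33 RPKM in sham, so all 4 genes were below sham at 4 hours.

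Among the next genes by ratio, Capg, an actin-capping protein of macrophages, was at 56.4 RPKM at day 3 and 0.533 RPKM at 4 hours (5.23). Lcn2, which binds bacterial iron carriers and is made by astrocytes and neutrophils, was at 50.5 RPKM at day 3 and 0.78 RPKM at 4 hours (4.85). Plin2, the coat protein of lipid droplets, was at 77.4 RPKM at day 3 and 2.22 RPKM at 4 hours (4.61). The other genes among the 15 largest were Tgm1 (4.98), Bst2 (4.79), Ifi27l2a (4.79), Vim (4.58), Ifitm3 (4.54), Spp1 (4.52), Cd52 (4.42) and Lyz2 (4.32). Of these, exons of Tgm1, Spp1 and Cd52 overlap other annotated genes, and since the sources used here do not say whether counting used strand, reads of overlapping genes cannot be fully told apart. Each of the 15 largest was below its sham level at 4 hours. Lcn2 was at 10.3 RPKM in sham, and Tgm1 was at 0.13 RPKM at 4 hours and 4.71 RPKM in sham.

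**Figure D2:**
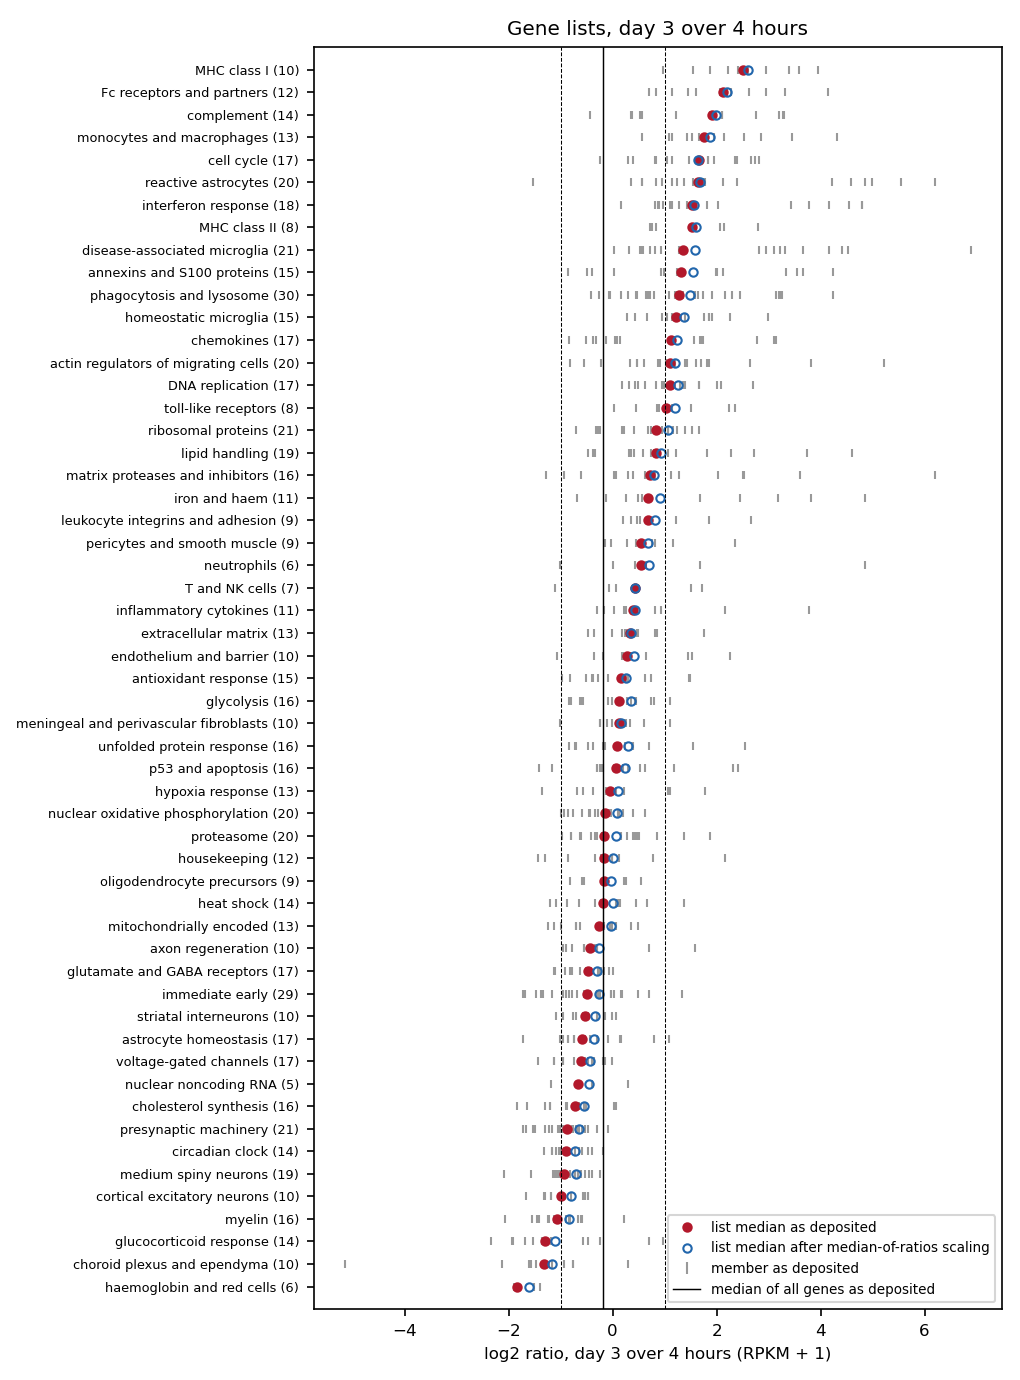
Log2 ratio of day 3 over 4 hours (horizontal axis) for each of 55 gene lists (rows, with the number of members analysed), showing members as grey ticks, the median as deposited as a filled point and the median after median-of-ratios scaling as an open point. The MHC class I list is highest at 2.51 and the haemoglobin list lowest at -1.85, against -0.19 for all genes (solid line).

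Phagocyte genes were higher at day 3 as a group. Of 30 analysed genes of phagocytosis and lysosomes, 18 passed 2-fold upwards at day 3 and 0 downwards, with a median log2 ratio of 1.28 (1.49 scaled). Cd68, a glycoprotein of phagocyte lysosomes, was at 211 RPKM at day 3 and 10.3 RPKM at 4 hours (4.23, ratio 20.5, interval 18.3 to 23.1). In the other libraries Cd68 was at 12.8 RPKM in sham, 24.6 at day 1 and 81.9 at day 10. Ctsd, the aspartic protease cathepsin D, reached 1631 RPKM at day 3 against 175 RPKM at 4 hours (3.22), and unlike Cd68 it was no higher at day 1 (122 RPKM) than at 4 hours, while at day 10 it was still at 1490 RPKM. The lysosomal growth factor gene Grn (3.26) and the cysteine cathepsin genes Ctsz (3.19) and Ctsh (3.15) had ratios of like size. Laptm5, a lysosomal membrane protein of blood-derived cells and microglia, was at 106 RPKM at day 3 and 18.6 RPKM at 4 hours (2.45). The 12 members within the limit included the lysosomal membrane protein gene Lamp1 (-0.07) and the proton pump genes Atp6v0c (0.16) and Atp6v1a (-0.42, the lowest ratio of the list).

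Of 21 genes of the state known as disease-associated microglia, which microglia take on near plaques and debris, 13 passed 2-fold upwards at day 3 and 0 downwards, with a median of 1.36 (1.59 scaled). Spp1, the osteopontin gene, was at 62.2 RPKM at day 3 and 1.76 RPKM at 4 hours. Gpnmb, a membrane glycoprotein of lipid-laden phagocytes, was at 18.1 RPKM at day 3 and 0.0668 RPKM at 4 hours (4.16), and at 25.2 RPKM at day 10. Cst7, an inhibitor of cathepsins, was at 13.3 RPKM at day 3 and 0.132 RPKM at 4 hours (3.66), and had its highest level at day 10 with 52.9 RPKM. The list was divided evenly in time, with 10 members highest at day 3 and 10 at day 10. Apoe, the main lipid carrier of the brain, was at 1096 RPKM at day 3 and 726 RPKM at 4 hours (0.59), within the size limit.

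Markers of homeostatic microglia, which are known to be turned down in activated cells, were higher at day 3 too. Of 15 analysed, 11 were at least 2-fold higher and 0 lower, with a median of 1.21 (1.37 scaled). Tmem119, a surface protein of resident microglia, was at 48.1 RPKM at day 3 and 12.5 RPKM at 4 hours (1.86, ratio 3.84, interval 3.52 to 4.19). It was at 14 RPKM in sham, 3.98 at day 1 and 46.2 at day 10, so day 1 was the lowest of the 5 libraries. Fcrls, an Fc receptor-like gene of mouse microglia, was at 90.7 RPKM at day 3 and 10.6 RPKM at 4 hours (2.98). The purinergic receptor genes P2ry12 (0.95) and P2ry13 (0.28), the fractalkine receptor gene Cx3cr1 (0.66) and the transcription factor gene Sall1 (0.42) were the 4 members within the size limit. The summed level of the list was 448 RPKM at day 3 and 115 RPKM at 4 hours, with 64.8 RPKM at day 1.

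Monocyte and macrophage genes gave 12 of 13 at least 2-fold higher at day 3 and 0 lower, with a median of 1.75 (1.86 scaled). Lyz2, the lysozyme of macrophages, was at 97.9 RPKM at day 3 and 3.94 RPKM at 4 hours (4.32). It was at 10.7 RPKM in sham, 26.4 at day 1 and 245 at day 10, where it was highest. Arg1, the arginase of alternatively activated macrophages, was at 10.2 RPKM at day 3 and 0.0195 RPKM at 4 hours (3.45). Only 2 reads lay behind the 4-hour value, so its ratio of 521 has a counting interval of 93 to 20614. Arg1 was close to day 3 in no other library, at 0.16 RPKM in sham, 1.37 at day 1 and 0.0841 at day 10. Stab1, a scavenger receptor (2.86), Plac8 (2.52) and Adgre1, which encodes the F4/80 antigen (2.15), were also higher.

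Receptors that bind antibodies and their partners were higher at day 3. Of 12 Fc receptor genes and partners, 10 were at least 2-fold higher and 0 lower, with a median of 2.12 (2.20 scaled). Fcgr4, an activating receptor for immunoglobulin G, was at 20.8 RPKM at day 3 and 0.243 RPKM at 4 hours (4.14, ratio 85.9, interval 41.4 to 215). Tyrobp and Fcer1g, the signalling adaptors shared by many of these receptors, were at 293 and 114 RPKM at day 3, against 28.7 and 13.9 RPKM at 4 hours (3.31 and 2.95). The kinase genes Syk (0.82) and Fgr (0.70) were the pair within the limit. Toll-like receptor genes and partners gave 4 of 8 higher and 0 lower (median 1.02), led by the accessory genes Ly86 (2.36) and Unc93b1 (2.25), while Tlr2 was at 0.89, Tlr7 at 0.45 and Tlr9 at 0.02.

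Of 14 complement genes, 9 passed 2-fold upwards at day 3 and 0 downwards, with a median of 1.90 (1.99 scaled). The 3 chains of C1q, the molecule that starts the classical pathway, had ratios of nearly the same size. C1qa was at 780 RPKM at day 3 and 80.1 RPKM at 4 hours (3.27, ratio 9.74, interval 9.29 to 10.2), C1qb was at 798 RPKM at day 3 and 86.4 RPKM at 4 hours (3.19), and C1qc was at 512 RPKM at day 3 and 51 RPKM at 4 hours (3.30). Their neighbour in the cascade C4b was at 13.3 RPKM at day 3 and 1.12 RPKM at 4 hours (2.76), and may share reads with its near copy C4a. The receptor genes C5ar1 (2.11) and C3ar1 (2.1) were higher as well, while C3 itself was at 0.56 and Cfb, of the alternative pathway, at 0.38.

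MHC class I genes had the highest median of the 55 lists, 2.51 (2.60 scaled), with 9 of 10 at least 2-fold higher at day 3 and 0 lower. H2-K1, a class I heavy chain, was at 125 RPKM at day 3 and 7.18 RPKM at 4 hours (3.94), and H2-D1 was at 134 RPKM at day 3 and 10.3 RPKM at 4 hours (3.58). Heavy chain genes are near-identical in parts, so reads may be split among them. B2m, the light chain they share, was at 249 RPKM at day 3 and 31.6 RPKM at 4 hours (2.94, ratio 7.89, interval 7.26 to 8.59). The immunoproteasome gene Psmb8 (3.39) and the peptide transporter gene Tap1 (2.42), which overlaps Psmb9 on the opposite strand, were higher, and Tap2 was at 0.97. The list peaked later than day 3, with 9 of 10 members highest at day 10. MHC class II genes gave 5 of 8 higher (median 1.52) and 7 of 8 were highest at day 10. H2-Ab1, a class II chain, was at 9.4 RPKM at day 3 and 0.492 RPKM at 4 hours (2.80), and at 20.6 RPKM at day 10.

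Interferon response genes gave 13 of 18 at least 2-fold higher at day 3 and 0 lower, with a median of 1.52 (1.56 scaled). These genes are switched on by interferon signalling and act against viruses. Ifitm3, a membrane protein that blocks viral entry, was at 320 RPKM at day 3 and 12.8 RPKM at 4 hours (4.54). Bst2, which tethers budding virus, was at 105 RPKM at day 3 and 2.84 RPKM at 4 hours (4.79), and Oas1a, a sensor of double-stranded RNA, was at 20.9 RPKM at day 3 and 0.219 RPKM at 4 hours (4.17). Isg15, a ubiquitin-like modifier, was at 32.9 RPKM at day 3 and 1.47 RPKM at 4 hours (3.78). In sham Isg15 was at 12.5 RPKM and Oas1a at 2.89 RPKM, so for both the 4-hour library was below sham. Oas1a has close relatives in the genome with which it may share reads. Stat2, a transcription factor of interferon signalling, was within the limit (0.16). Of the 18 members, 12 were highest at day 10 and 5 at day 3.

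The promoters of 3 of these genes are shown because they hold the core of the interferon-stimulated response element, which is GAAA, any 2 bases and GAAA again, in either orientation. The capitals mark each match, and matches that overlap form a longer run. Each sequence reads 5′ to 3′ along the gene's strand and comes from RefSeq on GRCm38.p6. The Isg15 stretch (chr4:156200840-156200919, minus strand) ends 22 bases before the gene start and holds 3 matches, the Bst2 stretch (chr8:71537552-71537631, minus strand) ends 80 bases before it and holds 2, and the Oas1a stretch (chr5:120907526-120907605, minus strand) ends at the base before it and holds 2.
Isg15: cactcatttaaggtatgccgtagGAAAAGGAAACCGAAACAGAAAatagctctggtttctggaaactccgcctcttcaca
Bst2: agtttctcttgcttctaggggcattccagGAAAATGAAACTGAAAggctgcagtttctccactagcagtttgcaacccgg
Oas1a: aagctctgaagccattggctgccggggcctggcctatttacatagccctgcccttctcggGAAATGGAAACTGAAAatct
In the 250 bases before the start, this core was found in 8 of the 14 interferon response members that had a RefSeq promoter (Isg15, Ifit1, Ifit3, Stat2, Bst2, Oas1a, Gbp2 and Gbp3), and in 2 of 9 MHC class I members. It was in 40 of 579 promoters of protein coding genes higher at day 3 (6.91%), in 13 of 560 of the lower ones (2.32%), in 2.60% of all analysed coding genes and in 821 of all 27025 promoters (3.04%). In all 18 motifs were searched, and the 4 shown were picked after their counts were seen.

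Fc receptor and microglial genes are known targets of PU.1, the lineage factor of macrophages, and the letters GAGGAAGT of its site were searched on both strands. They were in 35 of 579 promoters of genes higher at day 3 (6.05%), in 8 of 560 of the lower ones (1.43%), and in 660 of all 27025 (2.44%). Within lists the matches were few, with Fcgr4 and Vav1 of 9 Fc receptor genes with a promoter, Spp1 of 17 disease-associated microglia genes, Ctsc of 24 phagocytosis genes and 0 of 10 homeostatic microglia genes. The pair below shows the matches in capitals, on the reverse strand in Fcgr4. Its stretch (chr1:171018846-171018925, plus strand) lies 80 to 1 bases before the start and also holds an interferon element core in lower case, and that of Spp1 (chr5:104434962-104435041, plus strand) lies 149 to 70 bases before the start.
Fcgr4: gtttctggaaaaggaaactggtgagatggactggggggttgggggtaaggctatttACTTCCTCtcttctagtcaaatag
Spp1: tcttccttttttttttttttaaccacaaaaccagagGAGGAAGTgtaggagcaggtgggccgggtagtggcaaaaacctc
A match is a description of these letters and no evidence of binding in this tissue.

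Reactive astrocyte genes were higher at day 3, with 14 of 20 at least 2-fold higher, 1 lower and a median of 1.64 (1.67 scaled). Gfap, the intermediate filament that defines the reactive state, was at 509 RPKM at day 3 and 26.3 RPKM at 4 hours (4.22, ratio 19.3, interval 18.6 to 20.1). In the other libraries it was at 102 RPKM in sham, 272 at day 1 and 234 at day 10, so only the 4-hour library was below sham. Vim, the vimentin gene of reactive and immature glia, was at 107 RPKM at day 3 and 3.51 RPKM at 4 hours (4.58). Timp1, Serpina3n and Lcn2, described above, are members of this list too. The member lower at day 3 was Fkbp5, a glucocorticoid-induced chaperone partner, at 1.82 RPKM at day 3 and 7.11 RPKM at 4 hours (-1.52). The 20 members were highest at day 1 in 9 cases and at day 3 in 9.

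Genes for the housekeeping work of astrocytes, such as glutamate uptake and gap junctions, did not follow. Of 17 analysed, 1 was at least 2-fold higher at day 3 and 2 were lower, with a median of -0.59. After scaling 2 were higher and 1 lower, with a median of -0.36. The water channel gene Aqp4 was the higher one as deposited, at 3.23 RPKM at day 3 and 0.985 RPKM at 4 hours (1.09). Gjb6, a connexin, was at 2.04 RPKM at day 3 and 8.97 RPKM at 4 hours (-1.72). Glul, glutamine synthetase, was at 150 RPKM at day 3 and 304 RPKM at 4 hours (-1.01, scaled -0.78, within the limit). The glutamate transporter genes Slc1a2 (-0.74) and Slc1a3 (-0.52) were within the limit.

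Cell division genes were higher at day 3 than at any other time after stroke. In the cell cycle list 12 of 17 genes passed the 2-fold limit upwards at day 3 and 0 downwards (median 1.65, scaled 1.64), and 16 of the 17 were highest at day 3 among the stroke libraries. Cdc20, the activator of the anaphase-promoting complex, was at 10.8 RPKM at day 3 and 0.676 RPKM at 4 hours (2.82, ratio 16, interval 11 to 24.1), and was at 0.655 RPKM in sham, 0.416 at day 1 and 0.836 at day 10. Ube2c, the ubiquitin carrier of the same complex, was at 6.6 RPKM at day 3 and 0.134 RPKM at 4 hours (2.74), and the mitotic kinase gene Plk1 was at 6.83 RPKM at day 3 and 0.238 RPKM at 4 hours (2.66). Cdk1, the kinase that drives entry into mitosis, was at 4.94 RPKM at day 3 and 0.137 RPKM at 4 hours (2.39), and its cyclin gene Ccnb2 was at 4.37 RPKM at day 3 and 0.0569 RPKM at 4 hours (2.35). Exons of Cdc20, Ube2c and Plk1 overlap genes on the opposite strand. The member not highest at day 3 was Cdkn1a, an inhibitor of the cycle, with a log2 ratio of -0.25.

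DNA replication genes showed the same time course, with 17 of 17 highest at day 3, 9 at least 2-fold higher than at 4 hours and 0 lower (median 1.11, scaled 1.26). Tk1, thymidine kinase, was at 5.76 RPKM at day 3 and 0.0461 RPKM at 4 hours (2.69, ratio 125, interval 55.4 to 362), and Rrm2, a subunit of the enzyme that makes deoxynucleotides, was at 3.78 RPKM at day 3 and 0.126 RPKM at 4 hours (2.09). Mcm5, of the replicative helicase, was at 7.9 RPKM at day 3 and 1.8 RPKM at 4 hours (1.67). These levels are low beside those of the phagocyte genes, on the RPKM scale that divides by exon length. Ccnd1, the cyclin of the G1 phase, was at 19.3 RPKM at day 3 and 4.28 RPKM at 4 hours (1.94). The summed level of the cell cycle list was 97.3 RPKM at day 3 and 38.9 RPKM at 4 hours, with 18.7 RPKM in sham, 38.7 at day 1 and 21.3 at day 10. Its median log2 ratio to sham was 1.61 at day 3, 0.11 at 4 hours and 0.04 at day 1. The higher sums at 4 hours and day 1 than in sham were therefore not shared across the list.

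Mitotic genes carry the cell cycle genes homology region, whose core letters are TTTGAA, and 3 promoters are shown for it with the match in capitals, on the reverse strand in Ube2c. The core was in 5 of 12 cell cycle members with a promoter (Top2a, Cdk1, Ccnb2, Cdc20 and Ube2c) and in 3 of 16 DNA replication members, against 12.6% of the promoters of coding genes higher at day 3, 8.75% of the lower ones, 9.65% of all analysed coding genes and 16.3% of all promoters. A motif this short is frequent everywhere. The Cdc20 stretch (chr4:118437344-118437423, minus strand) and the Ube2c stretch (chr2:164769849-164769928, plus strand) lie 80 to 1 bases before the start, and that of Ccnb2 (chr9:70421679-70421758, minus strand) 204 to 125 bases before it.
Cdc20: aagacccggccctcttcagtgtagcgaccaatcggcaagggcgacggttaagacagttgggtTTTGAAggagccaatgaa
Ube2c: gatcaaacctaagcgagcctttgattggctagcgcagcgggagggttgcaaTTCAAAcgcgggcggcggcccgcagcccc
Ccnb2: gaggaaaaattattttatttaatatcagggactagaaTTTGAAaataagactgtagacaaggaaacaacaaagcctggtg
No match elsewhere says only that these letters are not in that window.

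Chemokine genes split by time. Of 17, 9 passed 2-fold upwards at day 3 over 4 hours and 0 downwards (median 1.13, scaled 1.24), but 10 were highest at day 1 and 0 at day 3. Ccl12, which attracts monocytes in mice, was at 25.7 RPKM at day 3 and 2.03 RPKM at 4 hours (3.14), with 206 RPKM at day 1. Ccl2, its close relative, was at 10.4 RPKM at day 3 and 2.58 RPKM at 4 hours (1.67), with 83 RPKM at day 1. Ccl8 had 0 reads at 4 hours and was at 7.55 RPKM at day 3, which is 59.1-fold higher when the 4-hour level is set to a floor of 3 reads. The counting interval of that ratio, which divides all reads by 2 for mates, begins lower, at 23.5. Chemokines that microglia release early were level between the pair of times, with Ccl3 at 10.4 RPKM at day 3 and 9.74 RPKM at 4 hours (0.09) and Ccl4 at 9.32 RPKM at day 3 and 10.3 RPKM at 4 hours (-0.13). Both had passed through a peak at day 1, of 69.1 and 61.3 RPKM.  Cx3cl1, the neuronal fractalkine gene, was at -0.84.

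Cytokine genes were mostly within the limit, with 2 of 11 higher and 0 lower (median 0.39). Pycard, the inflammasome adaptor, was at 19.9 RPKM at day 3 and 0.527 RPKM at 4 hours (3.78), and Tgfb1, which restrains inflammation, was at 7.71 RPKM at day 3 and 0.945 RPKM at 4 hours (2.16). Il1b was at 0.199 RPKM at day 3 and 0.183 RPKM at 4 hours, and Tnf at 0.852 RPKM at day 3 and 1.09 RPKM at 4 hours, so the classical early cytokines did not separate the pair. Neutrophil markers were few, with 6 of 16 analysed, 2 higher (Lcn2 and Csf3r) and 1 lower (Retnlg). S100a8 and S100a9, the alarmins of neutrophils, were at 3.82 and 4.53 RPKM at day 3, against 2.1 and 3.08 RPKM at 4 hours, and at 53 and 93.4 RPKM at day 1. Of 15 T and NK cell markers 7 were analysed, of which 2 were higher and 1 lower at day 3 (median 0.43). Cd4, the co-receptor of helper T cells, was at 6.92 RPKM at day 3 and 16.1 RPKM at 4 hours (-1.11, scaled -0.90, within the limit), with 11.7 RPKM in sham. The T cell receptor gene Trac was near the floor, with 4 reads at day 3 and 7 at 4 hours. Whether the Cd4 reads came from T cells was not tested. Gzma, a granule protease, was at 1.98 RPKM at day 3 and 0.0433 RPKM at 4 hours from 2 reads (ratio 45.7, interval 7.76 to 1846).

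**Figure D3:**
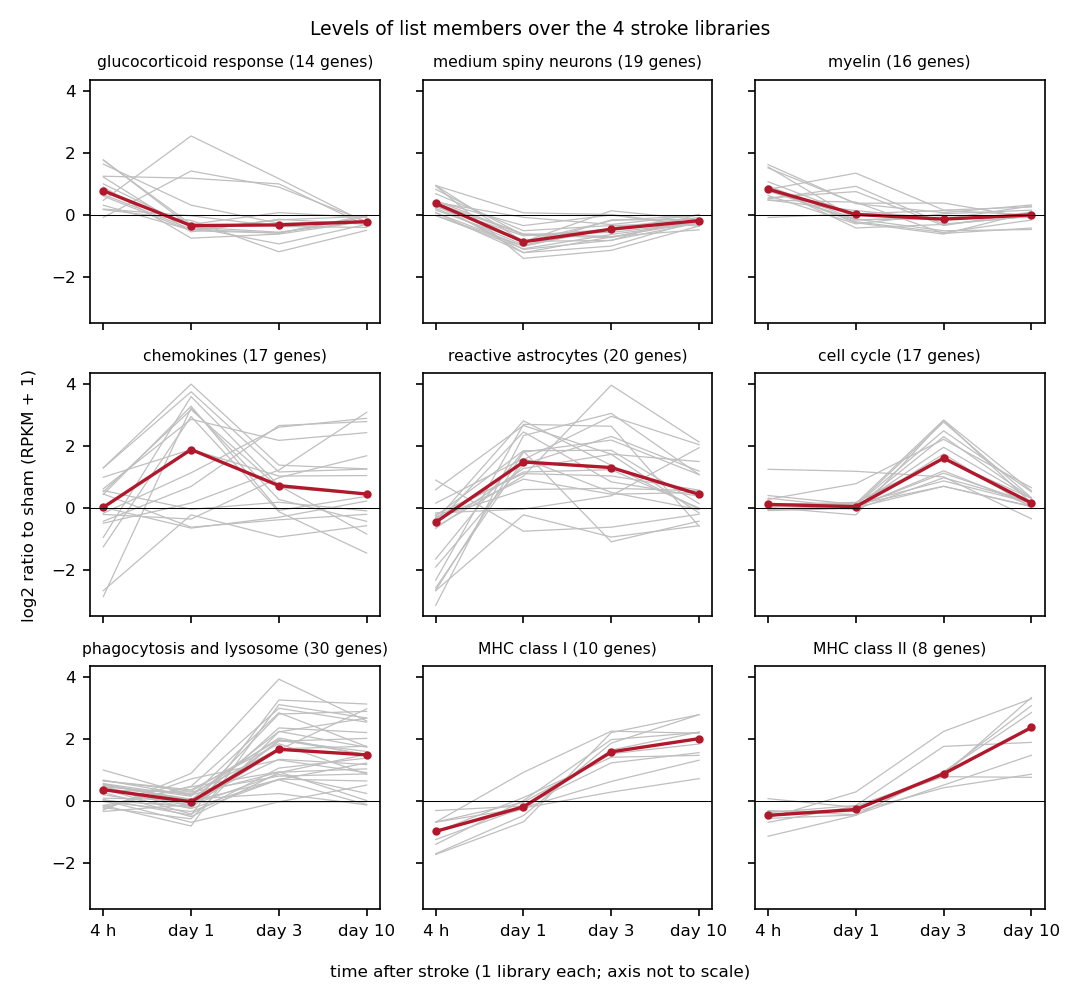
Log2 level over sham (vertical axis, RPKM + 1) at 4 hours, day 1, day 3 and day 10 (horizontal axis) for 9 gene lists, with members as grey lines and the list median as a coloured line. The cell cycle median stands highest over sham at day 3, chemokines peak at day 1, MHC genes are highest at day 10, and reactive astrocyte and MHC class I genes start below sham at 4 hours.

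Iron and haem genes gave 5 of 11 higher and 0 lower (median 0.68). Hmox1, which breaks down haem, was at 343 RPKM at day 3 and 23.5 RPKM at 4 hours (3.81, ratio 14.6, interval 13.6 to 15.6), and was at 31.8 RPKM in sham, 226 at day 1 and 16.8 at day 10. Ftl1, the ferritin light chain, was at 3333 RPKM at day 3 and 366 RPKM at 4 hours (3.18), while Fth1, the heavy chain, was at 3012 RPKM at day 3 and 2026 RPKM at 4 hours (0.57). The haemoglobin list lay on the other side, with 6 of 6 lower at day 3 and the lowest median of all lists, -1.85 (-1.62 scaled). Hba-a1 was at 390 RPKM at day 3 and 1455 RPKM at 4 hours (-1.90), and Hbb-bt at 224 RPKM at day 3 and 823 RPKM at 4 hours (-1.88). Hba-a1 and Hba-a2, like Hbb-bs and Hbb-bt, are near-identical copies whose reads may be split. Day 3 was the lowest of the 5 libraries for both genes, which were at 1018 and 728 RPKM in sham. Haemoglobin transcripts mark red cells in the tissue, and their part in the other results was not tested.

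Lipid handling genes gave 7 of 19 higher and 0 lower (median 0.83). Apoc2, an activator of lipoprotein lipase, had 0 reads at 4 hours and was at 12.3 RPKM at day 3. That is 154-fold higher over a floor of 3 reads, with a counting interval that begins lower, at 61.9. Exons of Apoc2 overlap another annotated gene. Ch25h, which makes 25-hydroxycholesterol, was at 9.97 RPKM at day 3 and 0.677 RPKM at 4 hours (2.71). Cholesterol synthesis genes were on the low side, with 5 of 16 lower and 0 higher (median -0.72, scaled -0.55). Insig1, a sterol sensor partner, was at 1.8 RPKM at day 3 and 9.05 RPKM at 4 hours (-1.84), and Msmo1 was at 2.23 RPKM at day 3 and 9.14 RPKM at 4 hours (-1.65).

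Genes for movement and matrix were partly higher. Of 15 annexins and S100 proteins 9 were higher and 0 lower (median 1.32), with S100a6 at 201 RPKM at day 3 and 15 RPKM at 4 hours (3.65) and Anxa2 at 25.5 RPKM at day 3 and 1.27 RPKM at 4 hours (3.54). Of 20 actin regulators of migrating cells, 11 were higher and 0 lower (median 1.11), including Tagln2 (3.81), Fermt3 (2.64) and Pfn1 (1.82). Of 16 matrix proteases and inhibitors 7 were higher and 1 lower. Adam8, a membrane protease of leukocytes, was at 12.3 RPKM at day 3 and 0.0938 RPKM at 4 hours (3.61), the urokinase gene Plau was at 2.50, and the tissue plasminogen activator gene Plat was the lower one at 2.03 RPKM at day 3 and 6.39 RPKM at 4 hours (-1.29). Matrix genes themselves were largely level, with 1 of 13 higher, the fibronectin gene Fn1 (6.46 RPKM at day 3, 1.21 RPKM at 4 hours, 1.75). Collagen Col1a1 was at 0.653 RPKM at day 3 and 0.385 RPKM at 4 hours, and reached 3.38 RPKM at day 10.

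Most vessel markers were within the limit. Of 10 endothelial and barrier genes, 3 were higher and 1 lower (median 0.27), and after scaling 3 were higher and 0 lower (median 0.42). Cldn5, the tight junction protein of brain endothelium, was at 45.7 RPKM at day 3 and 15.2 RPKM at 4 hours (1.53), Ly6a was at 73.3 RPKM at day 3 and 14.6 RPKM at 4 hours (2.26), and Mfsd2a, a lipid transporter of the barrier, was at 5.07 RPKM at day 3 and 11.7 RPKM at 4 hours (-1.07). Of 9 pericyte and smooth muscle genes 2 were higher, led by Tagln (2.36), and of 10 fibroblast genes 1 was higher and 1 lower (Mgp at 1.11 and Igf2 at -1.02). After scaling 3 pericyte and smooth muscle genes and 1 fibroblast gene were higher and 0 lower, with Mfsd2a (-0.86) and Igf2 (-0.84) within the limit.

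On the low side, genes induced by glucocorticoid hormone had 9 of 14 at least 2-fold lower at day 3 and 0 higher, with a median of -1.31 (-1.11 scaled). Tsc22d3, which encodes the leucine zipper protein GILZ, was at 6.87 RPKM at day 3 and 38.9 RPKM at 4 hours (-2.34, ratio 0.177, interval 0.162 to 0.192). In the other libraries it was at 10.6 RPKM in sham, 7.83 at day 1 and 9.14 at day 10, so the 4-hour library stood alone above the other 4. Sgk1, a kinase that regulates ion channels, was at 7.87 RPKM at day 3 and 27.7 RPKM at 4 hours (-1.69), and Klf9, a transcription factor, was at 4.52 RPKM at day 3 and 20.2 RPKM at 4 hours (-1.94). Sgk1 was at 7.44 RPKM in sham and Klf9 at 9.58 RPKM, both below the 4-hour library. The metallothionein genes Mt1 (0.98) and Mt2 (0.70) went the other way, within the limit as deposited, and had their peak at day 1 with 1029 and 2372 RPKM. Arrdc2, no member of the list but among the 15 smallest ratios, was at 1.35 RPKM at day 3 and 11.9 RPKM at 4 hours (-2.46).

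Clock genes leaned one way, with 14 of 14 ratios below 0 as deposited and after scaling. Of the 14, 5 were at least 2-fold lower at day 3 and 0 higher (median -0.91), and after scaling 1 stayed beyond 2-fold (median -0.73). Per1, a light- and hormone-responsive repressor, was at 8.15 RPKM at day 3 and 19.6 RPKM at 4 hours (-1.17), Cry2 was at 7.41 RPKM at day 3 and 16.9 RPKM at 4 hours (-1.09), and Hlf, an output factor, was at 2.73 RPKM at day 3 and 8.34 RPKM at 4 hours (-1.32). The 4-hour library was the highest stroke library for 13 of the 14 as deposited. It was the highest for 50.4% of all genes as deposited and for 32.5% after scaling. The sources used here do not give the hour of the day at which tissue was taken.

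Immediate early genes, which neurons and glia transcribe within minutes of a stimulus, gave 7 of 29 lower at day 3 and 1 higher, with a median of -0.48 (-0.27 scaled). Fos was at 3.09 RPKM at day 3 and 12.1 RPKM at 4 hours (-1.68, ratio 0.255, interval 0.212 to 0.304), and was at 2.48 RPKM in sham, 9.46 at day 1 and 2.58 at day 10, so day 3 lay near sham. Fosb was at 0.902 RPKM at day 3 and 5.28 RPKM at 4 hours (-1.72), and the neuron-specific Npas4 was at 2.17 RPKM at day 3 and 9.36 RPKM at 4 hours (-1.71). Ier3 was the member higher at day 3, with 21.4 RPKM at day 3, 7.91 RPKM at 4 hours (1.33) and a peak of 44.3 RPKM at day 1. Others were level, among them Junb (0.03), Nr4a1 (0.17) and Arc (0.49). Heat shock genes gave 1 of 14 higher and 2 lower (median -0.19), and hypoxia genes 3 of 13 higher and 1 lower (median -0.05). In the hypoxia list the oxygen-sensing hydroxylase gene Egln3 was at 4.43 RPKM at day 3 and 0.58 RPKM at 4 hours (1.78), and the stress gene Ddit4 at 31.5 RPKM at day 3 and 82.7 RPKM at 4 hours (-1.37).

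The cyclic AMP response element TGACGTCA, the site of the factor CREB, was more frequent among lower genes. It was in 10 of 579 promoters of genes higher at day 3 (1.73%) and in 26 of 560 promoters of the lower ones (4.64%), against 2.63% of analysed coding genes and 1.62% of all promoters. It reads alike on both strands. Of 22 immediate early members with a promoter, 2 held it (Btg2 and Dusp1), and of 13 glucocorticoid members 0. Btg2, which slows cell division, was at 1.79 RPKM at day 3 and 6.02 RPKM at 4 hours (-1.33), and its stretch (chr1:134079278-134079357, minus strand) lies 202 to 123 bases before the start, with the match in capitals.
Btg2: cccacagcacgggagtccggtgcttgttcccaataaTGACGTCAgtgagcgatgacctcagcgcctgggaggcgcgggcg
A match in so few members describes these genes and not their list.

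Markers of medium spiny neurons gave 7 of 19 at least 2-fold lower at day 3 and 0 higher, with a median of -0.94 (-0.71 scaled, when 2 remained beyond 2-fold). All 19 were highest at 4 hours among the stroke libraries as deposited. Of all genes analysed, 50.4% were highest at 4 hours as deposited and 32.5% after scaling. Drd1, the dopamine receptor of the direct pathway, was at 4.25 RPKM at day 3 and 10.1 RPKM at 4 hours (-1.09), and its counterpart of the indirect pathway Drd2 was at 55.1 RPKM at day 3 and 73.1 RPKM at 4 hours (-0.40). Adcy5, the adenylyl cyclase that dopamine receptors act on, was at 63.6 RPKM at day 3 and 140 RPKM at 4 hours (-1.13). The 4-hour level of Drd2 was level with its sham value of 73.8 RPKM. The summed level of the list was 1777 RPKM at day 3 and 2967 RPKM at 4 hours, with 2316 RPKM in sham and 1172 RPKM at day 1, the lowest.

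Presynaptic genes gave 9 of 21 lower and 0 higher (median -0.88, scaled -0.65). Nsf, which recycles the fusion machinery, was at 5.53 RPKM at day 3 and 20.5 RPKM at 4 hours (-1.72), Sv2a, a vesicle glycoprotein, was at 17 RPKM at day 3 and 56.4 RPKM at 4 hours (-1.67), and Gad1, which makes the transmitter GABA, was at 3.33 RPKM at day 3 and 11.2 RPKM at 4 hours (-1.49). Voltage-gated channel genes gave 3 of 17 lower (1 scaled, median -0.61 and scaled -0.44), led by the sodium channel subunit Scn4b, at 89.3 RPKM at day 3 and 244 RPKM at 4 hours (-1.44), and glutamate and GABA receptor genes gave 2 of 17 (0 scaled, median -0.48 and scaled -0.30). Centred on genes of like exon length, the channel median was -0.21 and the receptor median -0.17. Striatal interneuron markers gave 1 of 10 lower, with a median of -0.52, and Th, which makes dopamine, was level (0.06).

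Markers of tissue that borders the striatum moved with these lists. Of 10 cortical excitatory neuron markers, 5 were lower at day 3 and 0 higher (median -0.99), and their summed level was 88.1 RPKM at day 3 and 167 RPKM at 4 hours, within a range of 83.2 to 167 over the 4 stroke libraries. Of 10 choroid plexus and ependyma markers, 6 were lower and 0 higher (median -1.32, scaled -1.16), with a summed level of 32.6 RPKM at day 3 and 765 RPKM at 4 hours. Ttr, the transthyretin of choroid plexus, had the smallest ratio of all coding genes, at 19.6 RPKM at day 3 and 729 RPKM at 4 hours (-5.14), and was at 77.4 RPKM in sham, 303 at day 1 and 0.205 at day 10. Folr1, a folate receptor of that epithelium, was at 0.247 RPKM at day 3 and 4.48 RPKM at 4 hours (-2.14). The punches thus held different amounts of transcripts from these bordering tissues, and the part of this in the neuronal results was not tested.

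Myelin genes gave 9 of 16 lower and 0 higher, with a median of -1.07 (-0.84 scaled, when 5 remained beyond 2-fold). Mal, a raft protein of myelinating cells, was at 16.3 RPKM at day 3 and 71.5 RPKM at 4 hours (-2.06). Mog, on the outermost myelin layer, was at 35 RPKM at day 3 and 105 RPKM at 4 hours (-1.55). For Mog sham was at 33.2 RPKM, so the day 3 level was near sham and the 4-hour level above it. Oligodendrocyte precursor markers gave 0 of 9 beyond the limit in either direction (median -0.17).

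Genes of basic metabolism lay near the median of all genes. Nuclear genes of oxidative phosphorylation gave 0 of 20 beyond the limit (median -0.15), glycolysis genes 1 of 16 higher (Ldha at 1.10), the proteasome 2 of 20 higher, which were the interferon-inducible activators Psme1 (1.87) and Psme2 (1.38), and the unfolded protein response 2 of 16 (Sdf2l1 at 2.55 and Trib3 at 1.54). Ribosomal protein genes were an exception, with 8 of 21 higher and 0 lower as deposited (median 0.84) and 12 higher after scaling (1.07). Rplp0 was at 737 RPKM at day 3 and 231 RPKM at 4 hours (1.67), while Rpl4 was at -0.71. Ribosomal protein genes have many processed copies in the genome, so their reads may be split.

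The genes were next placed on the time course of the 4 stroke libraries. The choice of the higher genes leaves out 4 hours as their highest library and day 3 as their lowest, and that of the lower genes does the reverse, so the shares below are a description that the choice fixes in part. Of the 1217 higher genes, 947 were highest at day 3 (77.8%), 229 at day 10 (18.8%) and 41 at day 1 (3.37%). Of the 885 lower ones, 865 were highest at 4 hours (97.7%) and 668 lowest at day 3 (75.5%). Over all 12783 genes the 4-hour library was the highest for 50.4%, day 1 for 9.70%, day 3 for 26.4% and day 10 for 13.5%, and after scaling 4 hours was the highest for 32.5%, so that share depends on scaling.

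**Figure D4:**
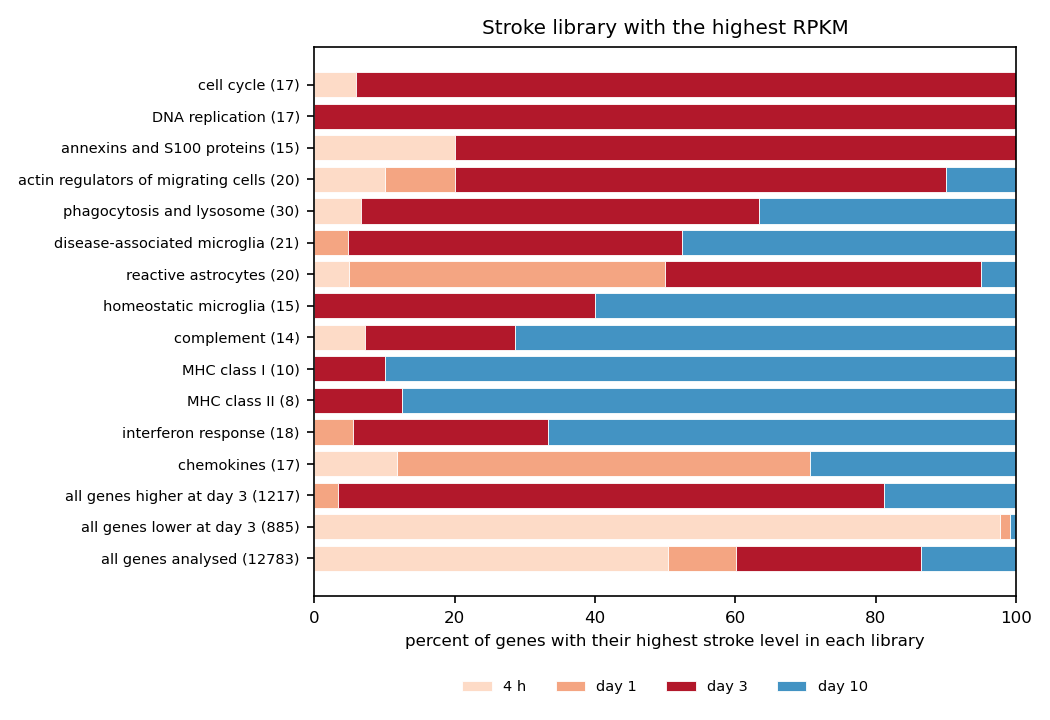
Percent of genes (horizontal axis, stacked bars) whose highest level among the 4 stroke libraries falls at 4 hours, day 1, day 3 or day 10, for selected gene lists and for the genes higher, the genes lower and all genes (rows, with the number of genes). Day 3 takes 77.8% of the higher genes and 4 hours 97.7% of the lower ones, shares that choosing the genes on these same 2 libraries fixes in part.

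The sham library, which the ratio as deposited does not use, gives a level to set each time against. Loci of ribosomal RNA held 41.2% of the gene-assigned reads in sham, more than in either stroke library compared here. Scaling raised sham levels against 4-hour levels by 0.37 on the log2 scale. At the same limit and as deposited, 1156 genes (9.04%) were higher and 79 (0.618%) lower than sham at day 3. At 4 hours 281 (2.2%) were higher and 139 (1.09%) lower than sham. These totals were not repeated after scaling. Of the 1217 higher genes, 843 (69.3%) were at least 2-fold above sham at day 3 and within 2-fold of it at 4 hours, 70 were within 2-fold at day 3 and at least 2-fold below sham at 4 hours, 32 were beyond it at both times in opposite directions, and 268 (22.0%) were within 2-fold of sham at both. Their median log2 ratio to sham was 1.28 at day 3 and -0.21 at 4 hours. Of the 885 lower genes, 694 (78.4%) were within 2-fold of sham at both times, 144 were above sham at 4 hours alone and 42 below sham at day 3 alone. Their median log2 ratio to sham was -0.50 at day 3 and 0.73 at 4 hours. After scaling, 799 of 1547 higher genes were above sham at day 3 alone, and of 412 lower genes 34 were above sham at 4 hours alone and 73 below it at day 3 alone. The larger of the last pair of counts therefore changed with scaling.

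The ratio varied with the length of the transcript. Coding genes were ranked by their union exon length and cut into 5 groups of nearly equal size. The median log2 ratio was 0.14 in the shortest group, then -0.13, -0.25, -0.34 and -0.43 in the longest. The share higher at day 3 was 15.9% in the shortest group and 2.33% in the longest, and the share lower was 4.16% in the shortest and 9.13% in the longest. Genes higher at day 3 had a median exon length of 2434 bases, lower ones of 4608 and those within the limit of 4010.5. Centred on genes of like length, 973 of the 10076 coding nuclear genes were higher and 378 lower, against 774 and 760 before centring. Of the 20 lists with medians beyond 1, 17 stayed beyond it. List medians on this scale were 1.55 for phagocytosis and lysosome, 1.83 for cell cycle, 2.70 for MHC class I, -0.99 for glucocorticoid response, -0.55 for medium spiny neurons, -0.75 for myelin and -2.14 for haemoglobin. The cause of this relation was not tested.

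**Figure D5:**
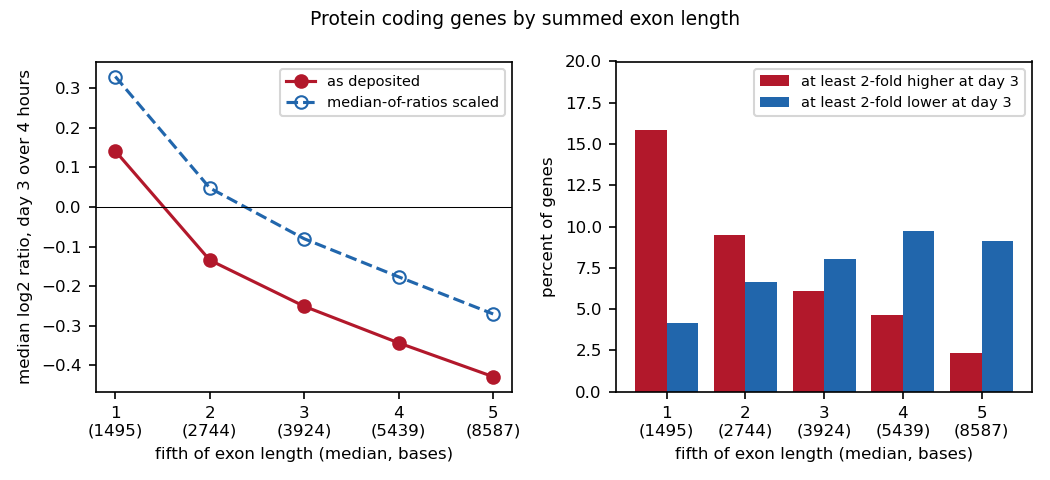
Median log2 ratio of day 3 over 4 hours (left, as deposited and scaled) and percent of genes at least 2-fold higher or lower at day 3 (right) in 5 groups of coding genes by exon length (horizontal axes, shortest to longest, median length in bases below). The median and the share of higher genes go down with length, to -0.43 and 2.33% in the longest group.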

How the data were processed

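RNA of micro-punched tissue was measured as total RNA in 5 pooled libraries, and the day 3 and 4-hour stroke libraries were compared. Per the labels' protocols, Trizol was used for extraction and a total RNA kit for library construction. Tools named, without roles, in the submitters' processing notes are HISAT2 2.1.0, StringTie 1.3.4d and Trimmomatic 0.36, and the build is GRCm38. Per the file headers, the authors deposited 1 RPKM value per gene and library. The authors also deposited, per the file headers, a log2 fold and a GFOLD value (a log2 fold shrunk for genes with few reads) for each pair of libraries, and GFOLD served as an alternative. The p-values deposited by the authors come with no stated test and were not used.

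GENCODE mouse release 21 held 19158 of the 19221 gene identifiers (99.7%) and gave symbols, coordinates and exon lengths. RPKM times union exon length gave whole reads, within 0.02, for 90.4% to 90.5% of low values in each library. Counting intervals (95%, conditional binomial, reads divided by 2 for mates) use those reads, cover counting error only, and are not given for genes whose reads were not whole. Of the low read numbers, only 55.3% to 57.3% in each library were even. Many halved numbers are therefore not whole, and the intervals are approximate. PCR copies are not independent molecules. Median-of-ratios scaling used 18262 genes above 0 in all libraries.

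Named genes are the 15 largest and 15 smallest log2 ratios among protein coding genes, and in each list up to 6 members of largest absolute ratio, members beyond 2-fold against their list and, where none is beyond 2-fold, 3 of highest level. Some genes that the rule names are not reported here. The comparison, the 55 lists and the rule were chosen with earlier results of these data known. No test between conditions was made, since each group is 1 library. The ratio calculation was tested on simulated data. Promoters are the first RefSeq window listed per symbol, cut to the 250 bases before the start. Python 3.11.15, pandas 2.3.3, numpy 2.4.6, scipy 1.17.1 and matplotlib 3.10.9 were used.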

Additional observations from a re-analysis of the deposited data

How the results depend on the processing

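As deposited, 1217 genes passed 2-fold upwards and 885 downwards at day 3 over 4 hours. Median-of-ratios scaling gave 1547 higher and 412 lower, a pseudocount of 0.1 gave 1768 and 1909, with more genes lower than higher, and a limit of 4-fold gave 299 and 10. Protein coding nuclear genes alone, rescaled to a common total, gave 808 and 578, with fewer genes tested. Leaving out the filter could not change either count, since a gene below 1 RPKM in every library cannot reach 2-fold with a pseudocount of 1. A floor of 5 RPKM gave 867 and 709, and the authors' deposited GFOLD value gave 1290 and 1184. Of alternatives chosen after seeing the data, centring on genes of like exon length gave 973 and 378. It covered only the 10076 protein coding nuclear genes, of which 774 were higher and 760 lower before centring. A counting interval that excludes a ratio of 1 gave 1078 and 779 among the 8855 genes with such an interval. The cause of these shifts was not tested. Of 20 lists with a median beyond 1, 19 stayed beyond it after median-of-ratios scaling, 20 with the pseudocount of 0.1, 19 with coding genes alone and 17 after length centring, and 0 turned sign. Of 230 named genes beyond 1, 203 stayed beyond it after median-of-ratios scaling, 230 with the smaller pseudocount, 222 of 227 with coding genes alone and 201 of 227 after length centring, and 0 turned sign. A smaller pseudocount can only move a ratio away from 0, so its counts of 20 lists and 230 genes were fixed in advance. Scaling and length centring shift values by much less than 1. They could not turn the sign of a value beyond 1, so the 0 turned signs are no sign of stability. No paired analysis was possible because each group is 1 library. Depth limits genes with few reads at 4 hours, such as Arg1 with 2 reads.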

Other observations

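Mitochondrial transcripts did not share a direction. Of 13 protein coding genes of the mitochondrial genome, 2 were at least 2-fold lower at day 3 and 0 higher (median log2 ratio -0.26). The cytochrome oxidase gene mt-Co1 was at 5979 RPKM at day 3 and 14096 RPKM at 4 hours (-1.24), and mt-Co3 was at 6498 RPKM at day 3 and 12858 RPKM at 4 hours (-0.98). The mitochondrial ribosomal RNA mt-Rnr1 was at 12046 RPKM at day 3 and 7264 RPKM at 4 hours (0.73), and the complex I gene mt-Nd2 was at 708 RPKM at day 3 and 506 RPKM at 4 hours (0.48).

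Gene classes other than protein coding genes also differed in their ratios. Processed pseudogenes, which are copies of mRNA in the genome, had 254 of 1034 higher at day 3 and 20 lower, with a median log2 ratio of 0.53. Small nuclear RNA genes, which build the spliceosome, had 23 of 44 higher and 0 lower (median 1.15), and microRNA genes had 55 of 218 higher and 25 lower (median 0.22). Many of these genes are short, and pseudogenes can share reads with their parent genes.

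Housekeeping genes often used as references spanned a wide range. Gusb, a lysosomal enzyme, was at 10.8 RPKM at day 3 and 1.65 RPKM at 4 hours (2.16), Hprt was at 10.5 RPKM at day 3 and 27.4 RPKM at 4 hours (-1.31), and Ywhaz was at 36.4 RPKM at day 3 and 99.8 RPKM at 4 hours (-1.43). The median of the 12 genes was -0.17.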
